A study of Mus musculus with 8 samples.

Results

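The genes described here encode the proteins of the cytoplasmic ribosome. They were chosen by symbol from the deposited count table: protein-coding rows whose symbol starts with Rpl or Rps followed by a digit, together with Rpsa, Rplp0, Rplp1 and Rplp2, leaving out the Rps6k kinases, pseudogene symbols and Rps19bp1. The rule found 87 of the 24505 genes in the table. Of these, 85 had a count in any library and 83 passed the filter on low counts, out of 12699 genes that passed it in all. The RNA is that of Scid.adh.2c2, an established mouse line of pro-T cells that served as the model in every group. Each of 4 groups held 2 libraries: cells given a mock GFP retrovirus, or a GFP retrovirus with wild-type Runx1 (Runx1 WT), with a construct labelled Runx1 DN, or with Satb1. Infected cells were sorted 2 days after infection, so all groups share the virus, the GFP marker and the sort. The labels do not spell out DN, and they do not say whether the replicates came from separate cultures, so a p-value here reflects no more than how far these libraries differ, which may be technical.

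A ribosome is built from a small and a large subunit, each a shell of proteins on ribosomal RNA, and each protein is present in about equal amounts. The messenger RNAs of these proteins are among the most abundant in a growing cell. Many start with a run of pyrimidines, the terminal oligopyrimidine (TOP) tract, through which growth signals set how strongly they are translated. Pro-T cells divide fast and make many ribosomes, and Runx1 and Satb1 are nuclear proteins that bind DNA and act in early T cell development.

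Library totals ran from 23624498 to 33093330 counts. Replicates of a group differed by 11.0 to 24.4 times the chi-square per degree of freedom that counting noise gives, so none was a copy of another. All 12 pro-T markers had counts in each group, with a summed level of 4887 and 4834 CPM in mock, 5849 and 5897 with Runx1 WT, 3008 and 2847 with Runx1 DN, and 6724 and 6584 with Satb1 (CPM are counts relative to the library total, scaled by edgeR's TMM factors). Runx1, added and endogenous together, stood at 7649 and 8310 CPM with Runx1 WT and at 21207 and 24246 CPM with Runx1 DN, against 137.8 and 129 CPM in mock. Satb1 stood at 3584 and 3984 CPM in its own group, against 385 and 377 CPM in mock.

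The label fits the levels: in mock, all 83 genes tested lay above 69.2 CPM per kilobase, the 90th percentile of all genes tested. Per kilobase of the length listed in the table, their mock level ran from 76.5 to 3360 CPM with a median of 1227, against a median of 10.9 over all genes tested. Rpl41, a very short large subunit protein, had the highest mock level at 3360 CPM per kilobase, followed by Rplp1 of the stalk with 2742 and Rpl8 with 2697. The lowest were Rpl7l1, a relative of Rpl7, with 76.5, Rpl21 with 84.1 and Rps15a with 106 CPM per kilobase. The length listed for Rps15a is 5127 bases and that for Rpl41 is 443 bases, and the level per kilobase depends on which transcript the table lists.

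Ribosomal protein genes took 7.44% and 7.66% of all counts in the mock libraries. They took 5.05% and 4.25% with Runx1 WT, 6.49% and 6.18% with Runx1 DN, and 7.21% and 7.57% with Satb1. Both Runx1 WT libraries were the lowest, both Runx1 DN libraries lay in between, and the Satb1 libraries lay on either side of the lower mock library. The group means were 7.55 ± 0.155% (SD, n = 2) in mock, 4.65 ± 0.566% with Runx1 WT, 6.34 ± 0.215% with Runx1 DN and 7.39 ± 0.256% with Satb1. Both subunits showed this order. The large subunit genes went from 4.73 ± 0.102% in mock to 2.92 ± 0.357% with Runx1 WT, and the small subunit genes from 2.83 ± 0.0527% to 1.73 ± 0.209%. These shares are relative to all other counts, so a lower amount per cell, fewer cells with a given amount, and more of other RNA cannot be told apart in bulk libraries.

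**Figure D1:**
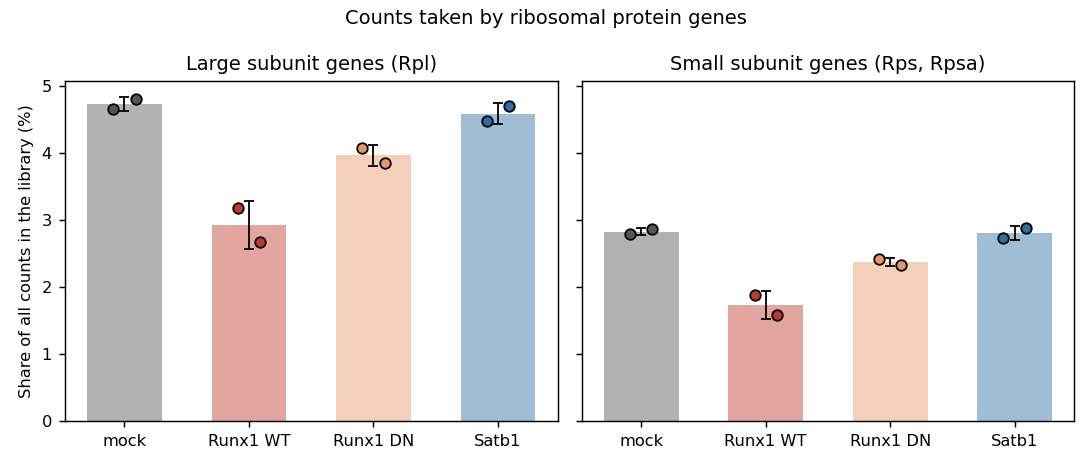
Share of all counts (%) taken by the large subunit genes (left) and the small subunit genes (right) in each group. Bars are means of 2 libraries, error bars are SD and points are libraries; in both panels the Runx1 WT points are lowest and the Runx1 DN points lie between them and mock.

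With Runx1 WT, ribosomal protein genes of both subunits were lower than in mock. Of the 83 genes tested 81 fell (edgeR adjusted p below the threshold of 0.05), none rose, and 16 fell at least 2-fold. Among all genes tested 31.8% fell and 38.9% rose. The median log2 fold change was -0.81, which puts the median gene at 57.0% of mock, against a median of 0.10 over all genes tested; with quantile normalization it was -0.46. All 83 values were below 0, between -1.32 and -0.23, and in all 83 both Runx1 WT libraries lay below both mock libraries. The share of all genes tested with that separation was not counted. With Satb1, 17 of the 83 genes also lay below both mock libraries in both libraries, although none was called. Of the 33 small subunit genes 31 fell, with a median of -0.84, and of the 50 large subunit genes 50 fell, with a median of -0.78.

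The 5 lowest values all belonged to the large subunit. Rpl14 had 1101 and 1158 CPM in mock, 489.9 and 413 CPM with Runx1 WT, 819.5 and 800.0 CPM with Runx1 DN, and 1016 and 1141 CPM with Satb1. The Runx1 WT libraries of Rpl14 were far below all others, and its log2 fold change was -1.32 ± 0.10 (SE, edgeR adjusted p = 1.01e-06), or 40.0% of mock. Rpl36a, encoded on the X chromosome, had 425 and 453 CPM in mock and 191 and 163 CPM with Runx1 WT, a change of -1.31 ± 0.09. Rpl3, which lies close to the site of peptide bond formation, had 1969 and 2161 CPM in mock against 926 and 828.5 CPM, a change of -1.24 ± 0.09. Runx1 WT and mock did not overlap in any of these genes. Rpl12, at the base of the stalk that recruits elongation factors, went from 1067 and 1126 CPM to 533 and 410.2 CPM (-1.22 ± 0.11). Rpl22, which is needed for the development of alpha beta T cells in mice, went from 459 and 517 CPM to 224 and 204 CPM (-1.19 ± 0.09).

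At the other end, the Rps27 row had 392.4 and 425 CPM in mock, 372 and 324 CPM with Runx1 WT, 307 and 338 CPM with Runx1 DN, and 388 and 447 CPM with Satb1. Its Runx1 WT libraries lay below both mock libraries, but the change of -0.23 ± 0.10 did not pass the test (edgeR adjusted p = 0.0531). The Rps27 change passed in most alternatives. Among them were upper quartile scaling (edgeR adjusted p = 0.0305), no low count filter (edgeR adjusted p = 0.0286), limma voom (adjusted p = 0.0492) and DESeq2 (adjusted p = 0.00773). Over all alternatives its adjusted p ran from 0.00773 to 0.425. Without Runx1 WT replicate 1 its change was -0.34. Rps27rt, named as a retrotransposed copy of Rps27, stood at -0.24 ± 0.10 (edgeR adjusted p = 0.0516). In the mm9 coordinates of the table both rows share one locus, chromosome 3 from 90016589 to 90017570 and to 90017569, and their counts stay within 2% of each other in every library, so they are in effect 1 measurement. Rpl13a, known in human monocytes as part of a complex that silences inflammatory messages, had 1442 and 1569 CPM in mock and 1214 and 1067 CPM with Runx1 WT. The Runx1 WT libraries of Rpl13a lay below mock and it fell by 0.40 ± 0.10 on the log2 scale (edgeR adjusted p = 0.00483), a direction that quantile normalization turned (0.19). Rps10, mutated in some patients with Diamond-Blackfan anaemia, had 735 and 760.0 CPM in mock and 612 and 481 CPM with Runx1 WT (-0.45 ± 0.11, edgeR adjusted p = 0.00468), a call that quantile normalization ended (-0.06, limma adjusted p = 0.611).

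The pair of Runx1 WT libraries differed in degree. The median of the 83 genes was -0.68 below the mock mean in replicate 1 and -0.94 in replicate 2, on the log2 scale. All 83 genes were lower in replicate 2 than in replicate 1, by a median of -0.26. Satb1 replicate 2 was higher than replicate 1 in all 83 genes as well, by a median of 0.13, and mock replicate 2 was higher than replicate 1 in 81 of 83, by a median of 0.08. By contrast, over all genes tested the median difference between replicates was -0.01 with Runx1 WT and 0.00 with Satb1.

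**Figure D2:**
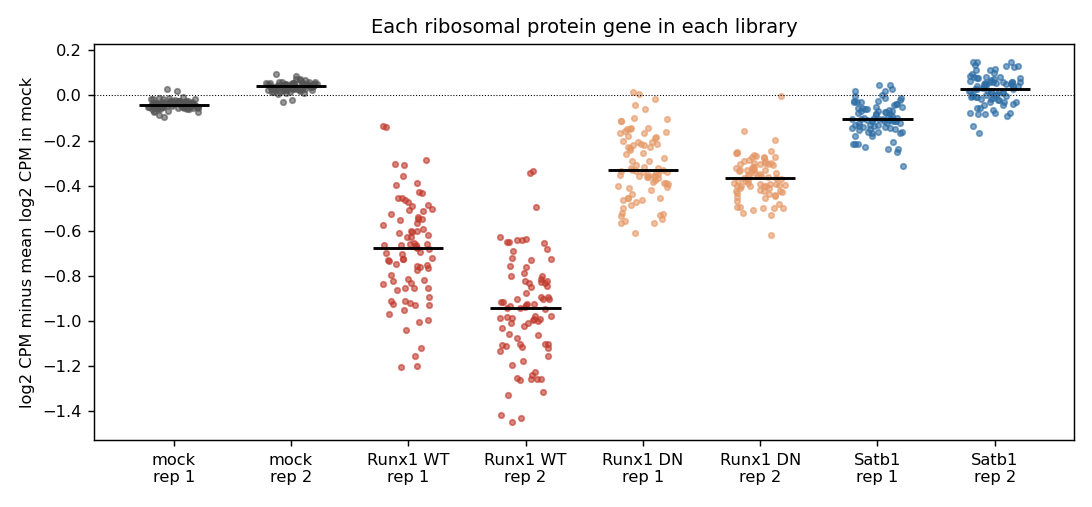
Each point is 1 of 83 ribosomal protein genes in 1 library, as its log2 CPM minus the mean log2 CPM of the mock libraries; black lines are medians. Both Runx1 WT libraries lie lowest (medians -0.68 and -0.94), the Runx1 DN libraries at -0.33 and -0.37, and the Satb1 libraries at -0.10 and 0.03.

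With Runx1 DN, ribosomal protein genes were lower than in mock by less than with Runx1 WT. In this group 55 of the 83 genes fell and none rose, among 16.9% of all genes tested that fell and 17.5% that rose. The median log2 fold change was -0.34, or 78.8% of mock at the median, against 0.00 over all genes tested, and 82 of the 83 values were below 0. Of the small subunit genes 22 of 33 fell, and of the large subunit genes 33 of 50. The number of calls depended on single libraries while the median moved little. Of the 55 genes 17 remained without mock replicate 2, and 28 remained without Runx1 DN replicate 1 or without replicate 2, with medians of -0.39 to -0.30 over all libraries left out in turn. Quantile normalization left 12 calls and a median of -0.14. Of the 28 genes that were not called lower, 27 had a 95% interval that includes a log2 change of -0.3.

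Rpl22l1, the paralog of Rpl22, had 85.2 and 92.3 CPM in mock, 51.8 and 45.01 CPM with Runx1 WT, 60.6 and 57.7 CPM with Runx1 DN, and 91.7 and 98.2 CPM with Satb1. Its Runx1 DN libraries lay just above the Runx1 WT libraries and well below the rest, and its change of -0.59 ± 0.09 was the lowest of the 83 (edgeR adjusted p = 0.000583). Rpl23a, which sits at the exit of the peptide tunnel, had 1115 and 1195 CPM in mock and 757 and 804 CPM with Runx1 DN (-0.57 ± 0.10). Rps4x, the X-linked form of a small subunit protein, had 1246 and 1324 CPM in mock and 867 and 908 CPM with Runx1 DN (-0.53 ± 0.09). For Rpl12 the change was -0.53 ± 0.11, not called with quantile normalization (limma adjusted p = 0.0914), and for Rpl36a -0.50 ± 0.09. In all 5 genes both Runx1 DN libraries lay below both mock libraries, as they did in 80 of the 83 genes. The share of all genes tested with that separation was not counted. Rpl7l1 stood apart in this group, with 203 and 195 CPM in mock, 199.9 and 198 CPM with Runx1 DN, and 124 and 112 CPM with Runx1 WT. Its Runx1 DN libraries lay between the mock libraries (0.00 ± 0.07, edgeR adjusted p = 0.986, 95% interval -0.15 to 0.15), while its Runx1 WT libraries were the lowest (-0.75 ± 0.07, edgeR adjusted p = 4.6e-06). After Rpl7l1, the values closest to 0 with Runx1 DN were those of Rpl19 (-0.15 ± 0.10), Rpl18 (-0.15 ± 0.12), Rps9 (-0.16 ± 0.11) and Rpl41 (-0.16 ± 0.12), none of which passed the test.

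Set directly against Runx1 DN, Runx1 WT was lower in 73 of the 83 genes and higher in none, where 33.5% of all genes tested were lower and 34.8% higher. The median log2 difference was -0.47, against 0.01 over all genes tested, with 30 of 33 small subunit genes and 43 of 50 large subunit genes called. Without Runx1 WT replicate 2 the median was -0.32 and 60 genes were called, and with quantile normalization it was -0.30. The widest differences were in Rps19, whose human form is the gene most often mutated in Diamond-Blackfan anaemia, and in Rpsa, also known as a laminin receptor. Rps19 had 425 and 346 CPM with Runx1 WT, 726 and 669.8 CPM with Runx1 DN, and 781 and 839 CPM in mock. Its Runx1 DN libraries lay a little below mock (-0.22 ± 0.10, edgeR adjusted p = 0.128, but 0.0404 without either Runx1 WT library) and far above Runx1 WT, a difference of -0.86 ± 0.10 (edgeR adjusted p = 3.75e-05). Rpsa had 1073 and 827 CPM with Runx1 WT, 1802 and 1622 CPM with Runx1 DN, and 2024 and 2134 CPM in mock, and its difference between the constructs was -0.85 ± 0.12. Rps27 (0.11 ± 0.10), Rpl17 (-0.10 ± 0.10), Rps10 (-0.13 ± 0.11) and Rpl13a (-0.15 ± 0.10) showed the smallest differences, none past the test. Rpl13a passed it with upper quartile scaling (-0.24, edgeR adjusted p = 0.0448). With TMM factors computed without the ribosomal protein genes it passed too (-0.25, edgeR adjusted p = 0.0436). For Rps10 the difference was -0.31 without Runx1 WT replicate 1.

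Both Runx1 WT libraries lay below both Runx1 DN libraries, and those below all mock and Satb1 libraries, in 70 of the 83 genes. Of all genes tested, 13.1% had that order. By group mean, 81 genes were lowest with Runx1 WT and only the rows Rps27 and Rps27rt were lowest with Runx1 DN. In 47 genes the test called Runx1 WT lower than mock, Runx1 DN lower than mock and Runx1 WT lower than Runx1 DN, as in 6.59% of all genes tested. These 3 comparisons share libraries.

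**Figure D3:**
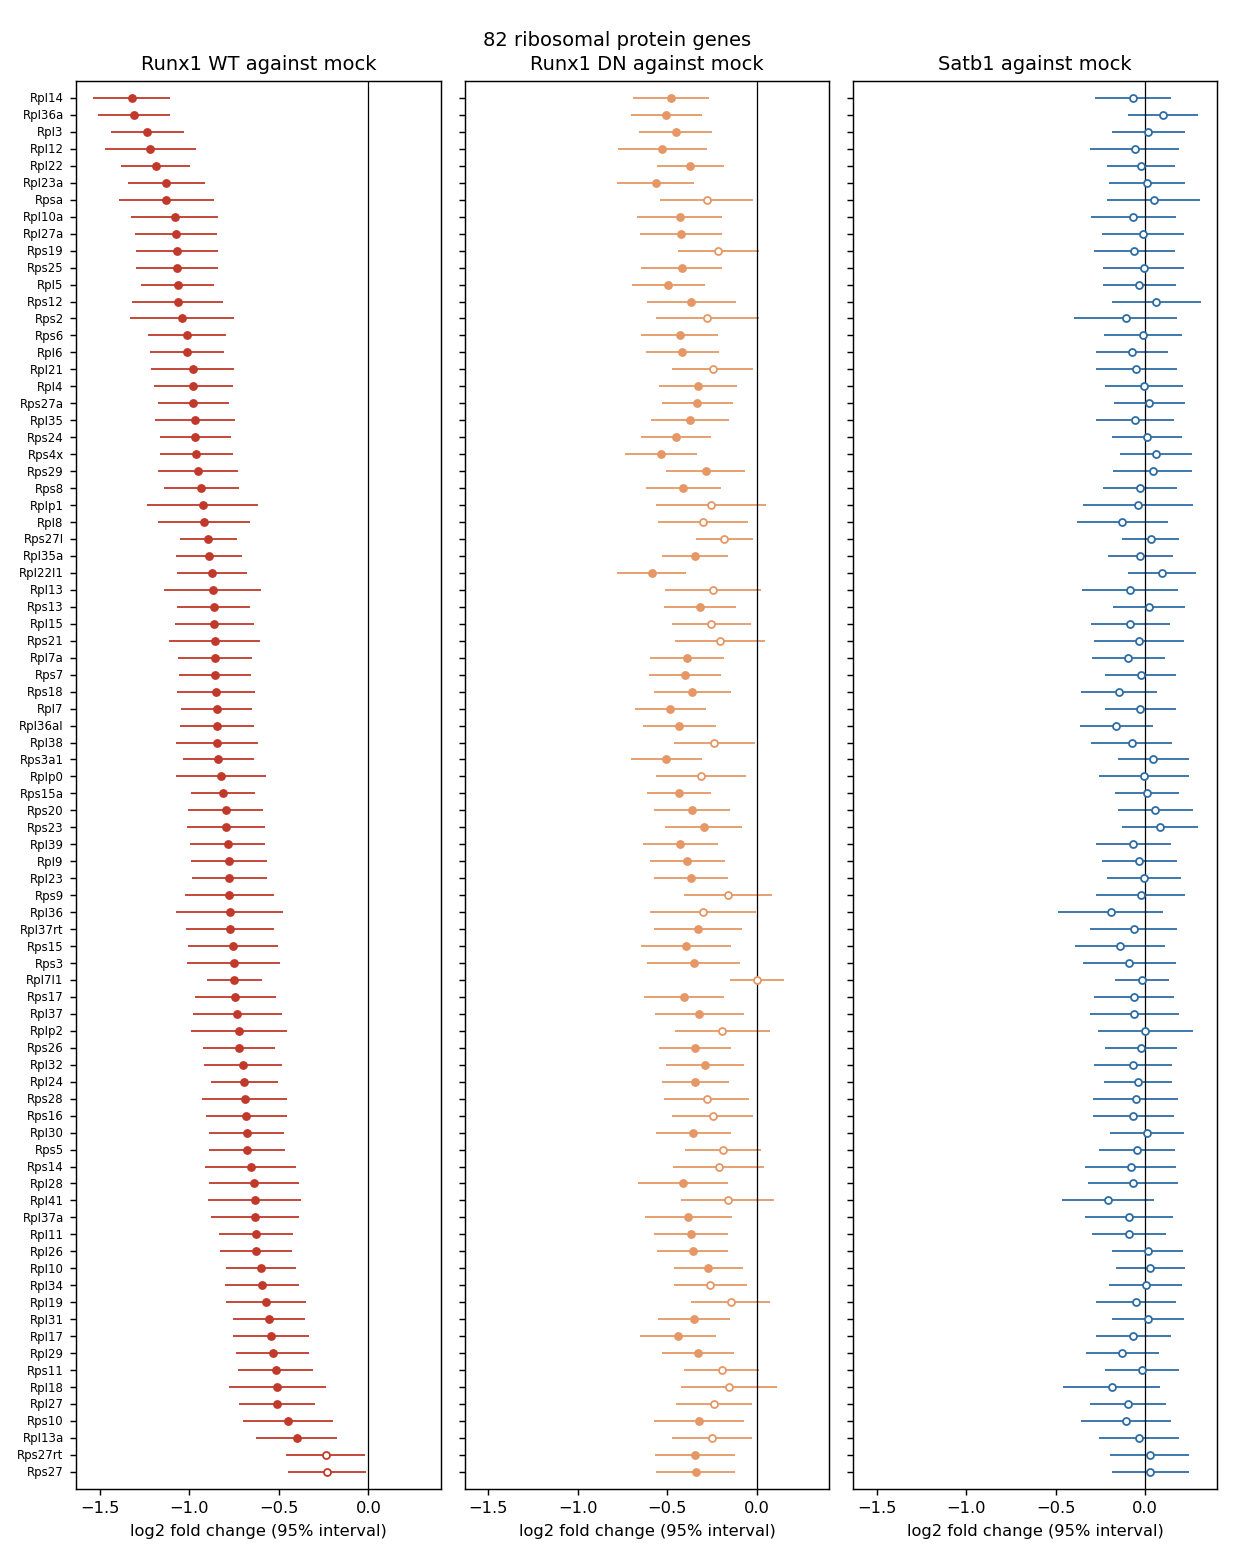
Log2 fold change of 82 ribosomal protein genes against mock with Runx1 WT, Runx1 DN and Satb1, in the order of the Runx1 WT values. Points are fitted values with 95% intervals, filled where the edgeR adjusted p is below 0.05, which is so for 80, 55 and 0 of the genes drawn.

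With Satb1 no change in these genes was detected. None of the 83 fell or rose at an adjusted p below 0.05, and none had an unadjusted p below 0.05 with edgeR; DESeq2 called none either. Of all genes tested 3.09% fell and 3.28% rose. Even so, both Satb1 libraries lay below both mock libraries in 17 of the 83 genes and above both in 3. How many of all genes tested separate in this way was not counted. The median log2 fold change was -0.03, the values ran from -0.21 to 0.10, and the 95% intervals together spanned -0.49 to 0.31. Rpl41 (-0.21 ± 0.12), Rpl36 (-0.19 ± 0.13) and Rpl18 (-0.19 ± 0.12) had the lowest values. Rpl36a (0.10 ± 0.09), Rpl22l1 (0.10 ± 0.09) and Rps23 (0.08 ± 0.10), which helps decode the codon, had the highest.

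Runx1 WT against Satb1 is a comparison that shares no mock library. All 83 genes were lower with Runx1 WT and none higher, among 32.2% of all genes tested that were lower and 38.7% higher. The median log2 difference was -0.77, against 0.08 over all genes tested (-0.45 with quantile normalization), and Rpl36a (-1.41 ± 0.09) and Rpl14 (-1.26 ± 0.10) were again at the low end. Rps27 (-0.26 ± 0.10) and Rps10 (-0.34 ± 0.11, but 0.0623 with quantile normalization) were at the high end, and both calls were lost without Runx1 WT replicate 2 (edgeR adjusted p = 0.196 and 0.127) or Satb1 replicate 2 (0.233 and 0.103). Across the 83 genes the differences between Runx1 WT and Satb1 had a Pearson correlation of 0.46 and a Spearman correlation of 0.44 with the changes of Runx1 DN against mock, from separate libraries. Over all 12699 genes tested Pearson's r was 0.12. This describes genes, which are not independent replicates and share depth and scaling within each library.

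By role, the stalk proteins that dock the elongation factors were lower with Runx1 WT. Rplp0 had 2621 and 2650.2 CPM in mock, 1662 and 1316 CPM with Runx1 WT, and 2250 and 1994 CPM with Runx1 DN. These 3 groups of libraries did not overlap for Rplp0, with changes of -0.82 ± 0.11 and -0.31 ± 0.11, the latter not past the test (edgeR adjusted p = 0.0543). With quantile normalization the Runx1 WT value of Rplp0 was -0.00949 and its call was lost (limma adjusted p = 0.948). The Runx1 DN value passed in 9 alternatives, among them DESeq2 (adjusted p = 0.00441) and the fits without Runx1 WT replicate 1 or 2 (edgeR adjusted p = 0.00858 and 0.00855). Rplp1 stood at -0.93 ± 0.14 and Rplp2 at -0.72 ± 0.12 with Runx1 WT, and both calls passed, while with Runx1 DN they stood at -0.26 ± 0.14 and -0.19 ± 0.12 and did not, although Rplp1 passed without either Runx1 WT library (edgeR adjusted p = 0.0233). Rpl5 and Rpl11, which bind Mdm2 when ribosome assembly is disturbed, fell with Runx1 WT, with log2 fold changes of -1.07 ± 0.09 and -0.63 ± 0.09, but for Rpl11 quantile normalization gave -0.16 and no call (limma adjusted p = 0.0807). With Runx1 DN Rpl5 had 1402 and 1392 CPM against 1868 and 2069 CPM in mock, and fell by 0.49 ± 0.09 on the log2 scale (edgeR adjusted p = 0.00223). Rpl11 was called too (-0.37 ± 0.09), but not without mock replicate 2 or either Runx1 DN library (edgeR adjusted p = 0.0868, 0.0557 and 0.0622). Rps6, the substrate of the S6 kinases downstream of mTOR, had 1371 and 1469 CPM in mock, 754 and 653 CPM with Runx1 WT, and 1023 and 1084 CPM with Runx1 DN. These 3 groups did not overlap for Rps6, with changes of -1.01 ± 0.10 and -0.43 ± 0.10, the latter lost without mock replicate 2 or Runx1 DN replicate 1 (edgeR adjusted p = 0.0528 and 0.0551).

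**Figure D4:**
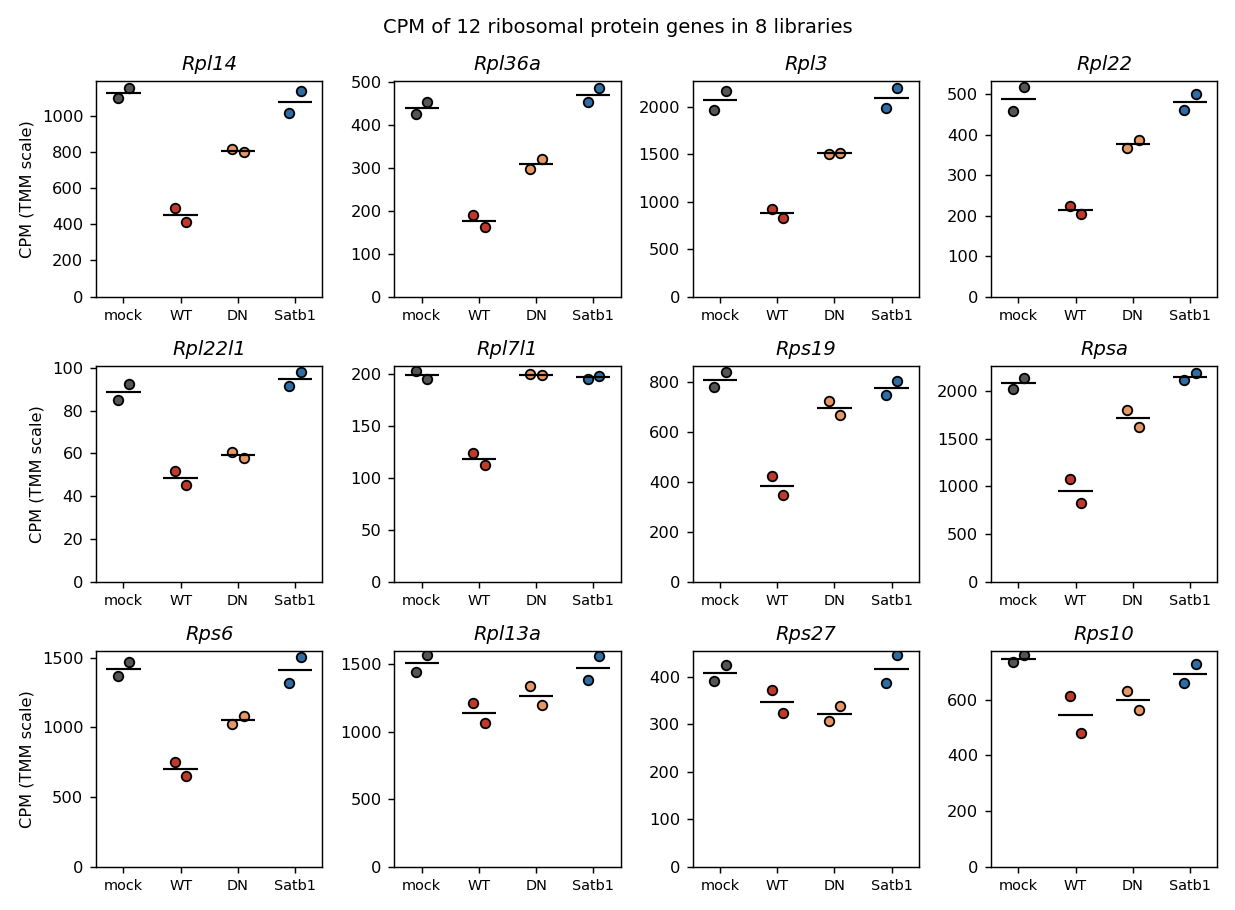
CPM on the TMM scale of 12 ribosomal protein genes in the 8 libraries; points are libraries and lines are group means of 2 libraries. In Rpl14, Rps19 and Rpsa the Runx1 WT points lie far below the others, in Rpl7l1 the Runx1 DN points lie at the mock level, and in Rps27 the Runx1 WT and Runx1 DN points overlap.

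Of 9 listed paralogs, 4 were at or near 0 and 5 were tested. Rpl10l and Rpl32l had no count in any library, Rpl39l had 0 or 1 count and Rpl3l 0 to 2 counts; Rpl10l and Rpl39l are known from the testis and Rpl3l from heart and skeletal muscle. A count of 0 allows up to 3 counts in a library, a limit that takes in counting error alone, as PCR copies of a molecule cannot be recognised in these reads. The pairs did not all move alike. Rpl22 fell by 1.19 and Rpl22l1 by 0.87 on the log2 scale with Runx1 WT, whereas with Runx1 DN Rpl22 stood at -0.37 ± 0.08 and Rpl22l1 at -0.59 ± 0.09; the call of Rpl22 with Runx1 DN was lost without mock replicate 2 or Runx1 DN replicate 1 (edgeR adjusted p = 0.0719 and 0.0615). Rpl36al stood at -0.85 ± 0.09 and Rpl36a at -1.31 ± 0.09 with Runx1 WT, and Rpl7l1 at -0.75 ± 0.07 and Rpl7 at -0.85 ± 0.09. With Runx1 DN Rpl7 fell by 0.48 ± 0.09 on the log2 scale, where Rpl7l1 stood at 0.00 ± 0.07. Rps27l, a p53 target, had 146 and 142 CPM in mock and 81.8 and 72.9 CPM with Runx1 WT (-0.89 ± 0.07), against -0.23 ± 0.10 for Rps27. The differences within pairs were not tested. Rpl37 (-0.73 ± 0.11) and Rpl37rt, its retrotransposed copy (-0.77 ± 0.11), had almost the same change with Runx1 WT, and near-identical copies of this kind may share reads. In all, 35 genes overlap the span of another row, 21 of them only rows of small nucleolar or micro RNAs in their introns, and the kit did not mark the strand. Among the 49 genes tested with no such overlap, all 49 fell with Runx1 WT and 31 with Runx1 DN.

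Because the genes moved together, their promoters were read from RefSeq for the GRCm38.p6 build, 250 bases before and 50 after each annotated start. The table held 74 promoters for 63 of the 83 genes. Below are 55 bases (35 before the start and 20 after it) for genes at the low end (Rpl14, Rpl36a, Rpl12) and the high end (Rps27, Rpl13a, Rps10) of the Runx1 WT changes, 5′ to 3′ on the coding strand. Capitals mark the pyrimidines from a C at the annotated start onward, the form of a TOP start, and the Ets type motif CCGGAAG.
Rpl14, chr9:120571482-120571536, plus strand: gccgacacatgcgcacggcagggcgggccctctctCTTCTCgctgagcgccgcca
Rpl36a, chrX:134585619-134585673, plus strand: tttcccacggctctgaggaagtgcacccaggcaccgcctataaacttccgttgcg
Rpl12, chr2:32961677-32961731, plus strand: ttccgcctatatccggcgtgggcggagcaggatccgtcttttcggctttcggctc
Rps27, chr3:90213629-90213683, minus strand: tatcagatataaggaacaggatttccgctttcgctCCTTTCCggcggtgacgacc
Rpl13a, chr7:45128726-45128780, minus strand: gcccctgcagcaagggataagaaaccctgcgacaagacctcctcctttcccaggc
Rps10, chr17:27635225-27635279, minus strand: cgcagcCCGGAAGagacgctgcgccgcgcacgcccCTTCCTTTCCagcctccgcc

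In Rpl14, Rps27 and Rps10, at both ends of the Runx1 WT order, the annotated start is a C inside a pyrimidine run that also reaches upstream of it. In Rpl36a, Rpl12 and Rpl13a the start has no such form, and a start annotated at another base would change this reading. A start of C followed by 4 bases that are each C or T was found in 18.9% of the 74 promoters, against 2.51% of all 32851 promoters of the table. The other motifs were searched on both strands over the 300 bases, counting a promoter once. CCGGAAG was found in 35.1% of them against 8.86% of all promoters. AAGATGGC, a YY1 type motif, was found in 10.8% against 2.75%, and the E-box CACGTG in 10.8% against 7.15%. The Runx type motifs TGTGGT and TGCGGT were found in 10.8% and 5.41%, against 16.8% and 6.45% of all promoters. CCGGAAG can overlap AAGATGGC by its last 3 letters, and such overlaps were not counted apart. A match describes the sequence and not a bound site.

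Other genes of ribosome production and translation were counted from lists of gene names. Of all genes tested 31.8% fell with Runx1 WT and 16.9% with Runx1 DN. Of 42 nucleolar assembly genes, 41 fell with Runx1 WT with a median log2 fold change of -1.31, and 24 fell and 1 rose with Runx1 DN with a median of -0.27. Examples with Runx1 WT are Gnl3 (-1.93 ± 0.08), the nucleolar GTPase nucleostemin, and Dkc1 (-1.78 ± 0.07), the pseudouridine synthase of the ribosomal RNA. Of 18 genes of RNA polymerase I, which transcribes ribosomal RNA, 14 fell with Runx1 WT (median -0.74) and 6 with Runx1 DN (median -0.11). Its largest subunit, Polr1a, stood at -1.64 ± 0.07 with Runx1 WT. Of 28 initiation factors 26 fell with Runx1 WT (median -0.71) and 9 with Runx1 DN (median -0.17), and Eif2b3, a subunit of the exchange factor that recharges the initiator complex, stood at -1.53 ± 0.09 with Runx1 WT. Of 21 elongation factors and other genes with TOP messages 20 fell with Runx1 WT (median -0.87) and 16 with Runx1 DN (median -0.33). With Runx1 WT this list included Npm1, a nucleolar chaperone that is also in the nucleolar list (-1.85 ± 0.08), and Eef1b2, an exchange factor of elongation (-1.25 ± 0.10). Of 78 mitochondrial ribosomal protein genes 60 fell with Runx1 WT (median -0.57), while with Runx1 DN 15 fell and 1 rose (median -0.05); the 15 are 19.2% of the list, near the 16.9% of all genes tested that fell. None of these lists had a call with Satb1 other than 3 mitochondrial ribosomal protein genes that fell, 3.85% of that list beside 3.09% of all genes tested.

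The nucleolar list thus had a lower median than the ribosomal proteins with Runx1 WT but not with Runx1 DN. The mitochondrial ribosomal proteins had medians closer to 0 than the cytoplasmic ones in both. These are medians set side by side, with no test between lists. Of 3 cytoplasmic ribosomal protein genes with other symbols, 2 fell with Runx1 WT and 1 with Runx1 DN. The shares of all genes tested that fell were 31.8% and 16.9%. Rack1 (listed under its older symbol Gnb2l1) stood at -0.77 ± 0.11 with Runx1 WT, and Fau at -0.35 ± 0.12.

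**Figure D5:**
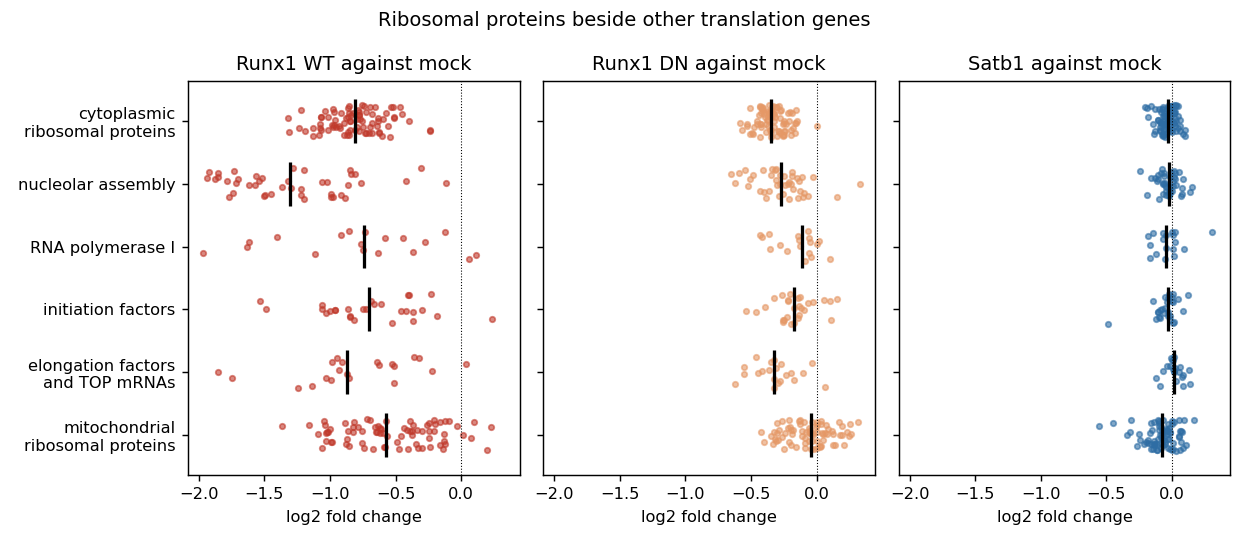
Log2 fold changes against mock of the 83 cytoplasmic ribosomal protein genes and of 5 other lists, for Runx1 WT, Runx1 DN and Satb1; each point is a gene and black bars are list medians. With Runx1 WT the nucleolar assembly genes reach the lowest median (-1.31), and with Satb1 all medians lie near 0.

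Of 15 growth control genes, 8 fell and 4 rose with Runx1 WT, and 3 fell and 2 rose with Runx1 DN. Of all genes tested 31.8% fell and 38.9% rose with Runx1 WT, against 53.3% and 26.7% of this list. With Runx1 DN 16.9% of all genes tested fell and 17.5% rose, close to the 20% and 13.3% of the list. Myc, which drives genes of ribosome production, had 698 and 655 CPM in mock, 149 and 130.3 CPM with Runx1 WT, 515 and 458 CPM with Runx1 DN, and 665 and 661 CPM with Satb1. Its order over the groups was that of most ribosomal protein genes, with -0.48 ± 0.09 for Runx1 DN against mock (edgeR adjusted p = 0.0021), and its part in their levels was not tested. Larp1, which binds TOP messages, stood at -1.18 ± 0.07 with Runx1 WT. Among the genes that rose with Runx1 WT was Mdm2, which restrains p53 (0.53 ± 0.06).

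The 5 genes outside the rule whose 8 log2 CPM values were most like the mean of the ribosomal protein genes were Rpl34-ps1, Lsm5, Cox7b, Epb41l4aos and Gm6654, with Pearson's r of 0.997 to 0.993 over the 8 libraries. The Rpl34-ps1 row lies at the Rpl34 locus. Of the 12616 other genes tested, 1804 had an r of at least 0.9.

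Other measures also differed between the groups, and their calls are to be read beside the shares over all genes. Of all genes tested 31.8% fell and 38.9% rose with Runx1 WT, 16.9% and 17.5% with Runx1 DN, and 3.09% and 3.28% with Satb1. Of the 12 pro-T markers 7 rose and 4 fell with Runx1 WT (median 0.65), 9 fell and 2 rose with Runx1 DN (median -1.40), and 6 rose with Satb1 (median 0.20). Of 6 RNA quality transcripts tested, 3 rose and 1 fell with Runx1 WT (median 0.62), and 4 rose with Runx1 DN (median 0.84), among them the nuclear RNAs Malat1 (1.28 ± 0.13 and 1.02 ± 0.13) and Neat1 (1.52 ± 0.12 and 0.61 ± 0.12). With Satb1, 1 of the 6 fell. The 7 transcripts of that list summed to 2697 and 2741 CPM in mock, and to 2533 and 2834 CPM with Runx1 WT. Their sums were 3095 and 3288 CPM with Runx1 DN, and 2582 and 2682 CPM with Satb1. Markers of NK cells, some of which T lineage cells also express, summed to 107 and 119.7 CPM in mock, 388 and 420.4 CPM with Runx1 WT, and 8.19 and 9.97 CPM with Runx1 DN, against 47.4 and 51.4 CPM with Satb1. Nearly all of this summed level was Gzma, a granzyme. All 4 NK markers tested rose with Runx1 WT (median 2.80), while 1 fell with Runx1 DN and 1 with Satb1. All 7 B cell markers together reached 1.46 CPM at most, and the 7 erythroid markers 2.80 to 7.88 CPM, with both Hbb genes at 0 in every library. With Runx1 WT, 1 of 2 B cell markers tested and 3 of 4 erythroid markers tested rose from these low levels. The 8 myeloid markers summed to 2.68 and 2.20 CPM in mock, 8.42 and 8.90 CPM with Runx1 WT, 5.49 and 6.45 CPM with Runx1 DN, and 2.47 and 1.91 CPM with Satb1, and of 4 tested 3 rose with Runx1 WT and 2 with Runx1 DN. Fibroblast and epithelial markers summed to 24.4 and 26.9 CPM in mock and to 87.7 to 113 CPM in the other groups, nearly all from Pdgfrb, and Krt18 was at 0. Of 3 such markers tested, 1 rose with Runx1 WT, 3 with Runx1 DN and 1 with Satb1. The part of these measures in the ribosomal protein results was not tested.

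The authors' deposited table gives its own test for each construct against mock. At an adjusted p below 0.05, the authors' deposited table has 83 of the 87 genes lower with Runx1 WT, 63 with Runx1 DN and none with Satb1, and none higher. Of these, 81 and 55 were also called lower here. The median log2 fold changes in the authors' deposited table over the 83 genes tested here were -0.92, -0.35 and -0.03.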

How the data were processed

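Per the labels' protocols, total RNA of sorted cells went into libraries without strand information, sequenced as single reads of 50 bases. HOMER counted the reads over exons on mm9, per the file headers, unadjusted and with transcripts of a gene merged, so the deposited values are whole-number counts. The submitters' processing notes name edgeR 3.6.8, HOMER, STAR 2.4.0, Trimmomatic 033 and RSEM 1.2.25. The deposited log2 fold changes, p-values and adjusted p-values are the authors' own edgeR comparisons.

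The counts were tested in R 4.3.3 with edgeR 4.0.16 (quasi-likelihood test, TMM, filterByExpr with minimum count 10 and minimum total 15) on all 8 libraries and group means, with Benjamini-Hochberg adjustment over 12699 genes, two-sided. There were 4 residual degrees of freedom, and the common biological coefficient of variation was 0.0818. Standard errors come from the log2 fold change and the test's F. Alternatives used DESeq2 1.42.0 and limma 3.58.1, other scalings and filters, and libraries left out.

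The genes, lists and tests were chosen with earlier results of these data known. Named genes are the 5 lowest and 5 highest fold changes of each comparison, the 3 highest and 3 lowest levels per kilobase, paralogs with their parent genes, the stalk, 6 genes with roles outside translation or in disease, up to 4 members of each other list by adjusted p, and Myc, Runx1 and Satb1; only some are printed, and a few are not reported here. Promoter coordinates are GRCm38.p6 and all others mm9.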

Additional observations from a re-analysis of the deposited data

How the results depend on the processing

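Over 22 refits no ribosomal protein gene was called higher in any of the 5 comparisons, and none was called lower with Satb1. With quantile normalization the median log2 fold change was -0.46 for Runx1 WT against mock, -0.14 for Runx1 DN against mock (12 genes lower), -0.30 for Runx1 WT against Runx1 DN and -0.45 for Runx1 WT against Satb1. It also reversed Rpl13a (0.19) against mock, and Rpl13a (0.21), Rpl18 (0.13) and Rps10 (0.0623) against Satb1. For Runx1 DN the median was -0.26 with library size alone and -0.29 with upper quartile scaling. Library size alone moved the median of all genes with Runx1 WT from 0.10 to 0.22 and quantile normalization to -0.10, and relative to it the ribosomal median was -0.91 in the former as with TMM and -0.35 in the latter. Of all genes called, 55.1% were higher with Runx1 WT (44.6% with quantile normalization), 54.6% against Satb1 (43.3%), and 50.9% with Runx1 DN (65.7% with library size alone, 61.5% with upper quartile scaling).

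Runx1 DN calls fell to 23 at an adjusted p below 0.01 and to 11 without the mock and Satb1 libraries numbered 2. With no overlapping rows, 49, 31, 45 and 49 of 49 genes were lower with Runx1 WT, Runx1 DN, Runx1 WT against Runx1 DN and against Satb1; there fewer genes are counted. Leaving out 1 library at a time gave 80 to 83 genes (median -0.94 to -0.68) for Runx1 WT, 17 to 74 (median -0.39 to -0.30) for Runx1 DN, 0 for Satb1 (median -0.10 to 0.03), 60 to 79 (median -0.59 to -0.32) for Runx1 WT against Runx1 DN and 77 to 83 (median -0.92 to -0.63) for Runx1 WT against Satb1. A lone library left in a group is assumed to vary like the other groups. A replicate block gave 83, 60, 0, 73 and 83 genes lower in the order above. The labels name no batch behind the replicate numbers, and with 2 numbers the data do not settle whether they pair the libraries. The correlations of same-numbered deviations were 0.068 to 0.39, highest between mock and Satb1, and a shared batch was not tested. With DESeq2 the counts were 83, 70, 0, 78 and 83. The cause of these shifts was not tested.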
